A study of Mus musculus with 6 samples.

Results

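The transcripts of 10 integrin subunits were followed in brain cells enriched for CD11b, the protein made from Itgam. The members were the rows of the deposited table named Itgam, Itgb2, Itgal, Itgav, Itgb5, Itgb3, Itgb1, Itga6, Itga4 and Itga9, and all 10 were found among 19225 listed genes. The rule used no measured level, but the protein of Itgam was used to isolate the cells, so the presence of its transcript is no finding. Both groups were male mice with a labelled age of 3 months that had not been stressed, with 3 mice per genotype and 1 library per mouse. The controls were labelled wt/wt for Cnr1, strain C57BL6/J, and are called Cnr1+/+. The other group was labelled d/d, strain Cnr1 tm1Zim, and is called Cnr1-/-. This allele is constitutive, so the cannabinoid receptor 1 gene was disrupted in all cells of these mice and not in CD11b+ cells alone. The methods describe the genotypes as littermates and give a younger age range than the labels. No stress, drug or transgene was applied to either group.

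Integrins are receptors for extracellular matrix and for proteins on other cells, and each is a pair of 1 alpha and 1 beta chain. Their cytoplasmic tails are switched to a high-affinity state by talin and kindlin, downstream of the small GTPase Rap1, and the ligated receptor signals through Src and Syk family kinases. In microglia, the resident macrophages of the brain, the pair αMβ2 (CD11b/CD18, complement receptor 3) binds opsonised material. The αV integrins bind vitronectin and other matrix proteins, some of them release active TGF-β from its latent complex, and the β1 integrins bind laminins, fibronectin and VCAM-1.

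Levels are given as cpm, read counts that the authors scaled to the size of each library by TMM, a normalisation that makes libraries comparable through their bulk of genes. Libraries were made from the 3′ end of each transcript, so a transcript gives about 1 tag whatever its length and values were not divided by length. The smallest recurring value of each library corresponds to 1 read and to between 7708793 and 10723822 reads per library. Microglial identity was checked with 14 markers, all listed, whose summed level was 17983 to 20844 cpm per library with overlapping groups. Neutrophil markers (10 of 11 listed) summed to 4099 cpm in Cnr1-/- replicate 2 against 268 to 530 cpm in the other 5 libraries. The same library held 2342 cpm of erythrocyte markers (7 of 7 listed), against 136 to 237 cpm elsewhere. Monocyte markers (6 of 6 listed) summed to 107 cpm there, against 27.6 to 35.3 cpm, of which Chil3 alone made 68.4 cpm (2.63 to 9.63 cpm elsewhere). Ly6c2 and Plac8 were also highest in that library, at 11.2 and 7.27 cpm, while Ccr2, Vcan and F10 lay within the range of the other 5. The targeted gene, Cnr1, was listed at 0 in all 3 Cnr1+/+ libraries and at 1.41, 1.21 and 1.79 cpm (13, 13 and 15 reads) in the Cnr1-/- libraries. The disruption lies in the coding region, and tags come from the 3′ end, so reads in Cnr1-/- libraries do not check the labels. This does not account for the absence of reads in all 3 Cnr1+/+ libraries, whose cause was not tested. Each direction given here is that of the labelled groups. In such bulk samples, fewer cells of a type and less RNA per cell cannot be told apart.

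No subunit differed between genotypes by more than the spread between libraries. The most abundant were Itgam, Itgb5 and Itga6, with means of 233 cpm or more, and the least abundant were Itga4 and Itgal, at a few cpm. With limma on log2(cpm + 0.1), 8 subunits reached the minimum mean of 10 cpm, and 0 of them had a nominal p under 0.05, where 6.02% of the 6659 genes tested did. Of these genes, 5.09% were higher and 0.931% lower in Cnr1-/-, and 0.0901% changed by over 1.5-fold at an adjusted p under 0.1, against 0 subunits. The groups of Cnr1+/+ and Cnr1-/- libraries overlapped for all 10 subunits, while they did not for 11% of the genes tested. The subunits tested had a median log2 fold change (Cnr1-/- over Cnr1+/+) of 0.08 with 5 of 8 above 0, and all genes tested had 0.08. The call of 339 higher and 62 lower genes depended on scaling, with 197 of 375 higher after centring each library on its median, 163 of 360 after quantile normalisation and 142 of 354 after equalising totals without mitochondrial genes. With centring, quantile normalisation and equal totals the subunits' median was 0.0019, −0.026 and −0.022 with 4 of 8 above 0 in each, and that of all genes 0.0084, −0.0014 and −0.016. With 1 library left out the subunits' median ranged from 0.0093 (without Cnr1+/+ replicate 1) to 0.12 (without Cnr1-/- replicate 3), and it was 0.014 without Cnr1-/- replicate 2. Leaving out Cnr1+/+ replicate 3 gave the most nominal calls over all genes, 600 of 6614, with 548 higher in Cnr1-/-. The median of all genes was then 0.13 and that of the subunits 0.058. With all 6 libraries, adjusted p-values (limma, Benjamini-Hochberg) of the subunits lay between 0.857 and 0.986.

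**Figure D1:**
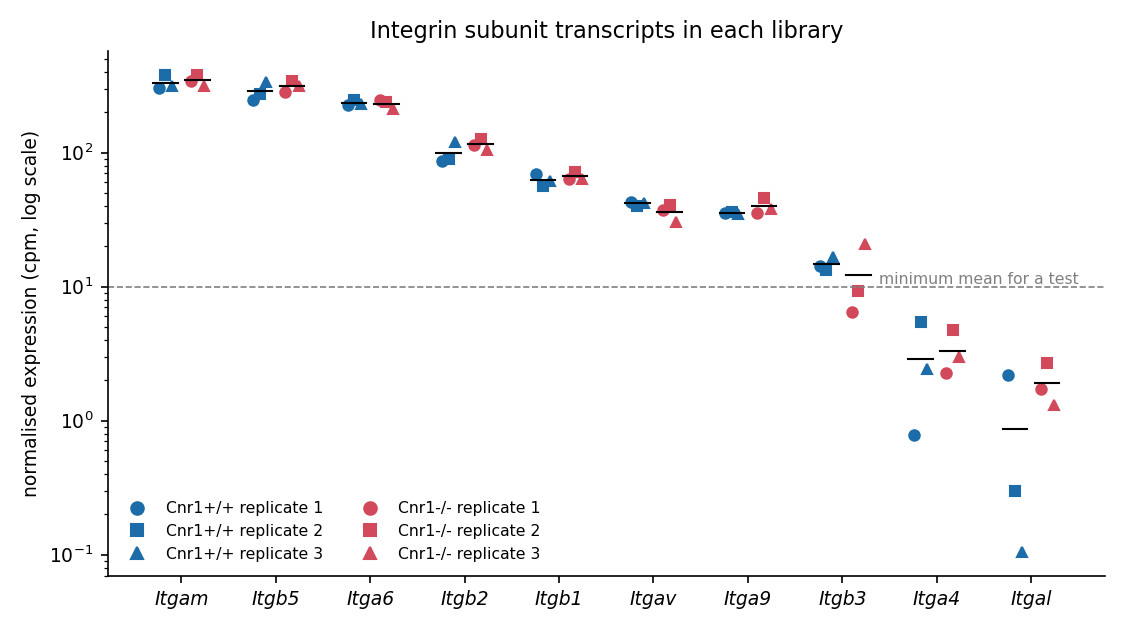
Normalised expression of the 10 integrin subunits in each library (cpm, log axis), with Cnr1+/+ in blue, Cnr1-/- in red, a marker shape per replicate and a black bar at the group mean. Points of both genotypes overlap for every subunit, Itgb3 spreads from 6.50 to 20.7 cpm within Cnr1-/- alone, and Itga4 and Itgal lie below the dashed line at a mean of 10 cpm.

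Among the leukocyte integrins, Itgam (mm10, chr7:128062640-128118491, plus strand) encodes αM, the chain that the isolating beads bind. It was measured at 303, 382 and 315 cpm in Cnr1+/+ and at 342, 377 and 316 cpm in Cnr1-/- libraries. The highest and the lowest library were both Cnr1+/+, and the genotypes covered almost the same range. The genotypes differed by a log2 fold change of 0.05 (95% interval −0.20 to 0.30, limma adjusted p = 0.972, n = 3), an interval of 0.873-fold to 1.23-fold. Its sign depended on scaling, being −0.021 with centred libraries, −0.063 with quantile normalisation and −0.045 with equal totals. Between 2335 and 4046 reads lay behind each value, and the within-group SD of 0.15 on the log2 scale exceeded the 0.03 that counting alone would give. Gm49368, a protein-coding gene annotated on the same strand across the 3′ end of Itgam, was listed at 0.469 to 5.82 cpm, so reads of the pair may be split. With both summed, the log2 fold change of Itgam stayed at 0.05.

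Itgb2 (chr10:77530252-77565708, plus strand) encodes β2 (CD18), the partner of αM and αL. Its level was 86.9, 89.3 and 120 cpm in Cnr1+/+ and 114, 127 and 104 cpm in Cnr1-/- libraries. Of the 8 tested, this subunit had the smallest nominal p, with a log2 fold change of 0.23 (95% interval −0.06 to 0.52, limma adjusted p = 0.857, n = 3), and its groups overlapped because Cnr1+/+ replicate 3 lay within the Cnr1-/- range. Leaving out that library gave 0.38, past a nominal p of 0.05 (limma adjusted p = 0.432). The highest value was in Cnr1-/- replicate 2, the library with the high neutrophil markers, and neutrophils also carry β2. Without it the log2 fold change was 0.16 (limma adjusted p = 0.999), and it was 0.13 to 0.16 under the 3 other scalings. The part of neutrophils in the Itgb2 values was not tested. The similar gene Itgb2l, named after its values were seen, was listed at 7.09 cpm in that library and at 0 to 1.43 cpm in the others. With Itgb2l added, the log2 fold change of Itgb2 was 0.27 (limma adjusted p = 0.838).

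Itgal (chr7:127296260-127335138, plus strand) encodes αL (CD11a), which with β2 forms LFA-1, the ICAM-1 receptor of lymphocytes and other leukocytes. It was listed at 2.21, 0.299 and 0.105 cpm in Cnr1+/+ and at 1.73, 2.70 and 1.31 cpm in Cnr1-/- libraries. The values correspond to 17, 3 and 1 reads against 16, 29 and 11 reads, and the highest Cnr1+/+ library lay above 2 of the Cnr1-/- libraries. The exact permutation test gave p = 0.3 (two-sided, n = 3), where the smallest p this design allows is 0.1. Without a minimum level, limma gave a log2 fold change of 1.75 (95% interval −0.03 to 3.54, adjusted p = 0.954 over 19225 genes). At so few reads this value depends on the pseudocount and on averaging logarithms, and the log2 ratio of the group means was 1.14. Lymphocyte markers, of which 2 of 9 were listed, summed to 5.29 to 9.99 cpm in Cnr1+/+ and 6.44 to 9.51 cpm in Cnr1-/-. Neutrophils carry CD11b and so pass the beads, and their markers summed to 503, 273 and 290 cpm in Cnr1+/+ and 530, 4099 and 268 cpm in Cnr1-/- libraries. The 3 libraries with the highest Itgal were the 3 with the highest neutrophil sums, but the other 3 did not keep this order. Cnr1-/- replicate 3 had the lowest neutrophil sum and more Itgal than Cnr1+/+ replicates 2 and 3. The part of either cell type in these values was not tested.

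Among the αV integrins, Itgav (chr2:83724397-83806916, plus strand) encodes the shared alpha chain. Its level was 42.8, 40.2 and 42.3 cpm in Cnr1+/+ and 37.5, 40.6 and 30.5 cpm in Cnr1-/- libraries. The Cnr1+/+ libraries lay close together, while Cnr1-/- replicate 3 was the lowest and replicate 2 reached the lowest Cnr1+/+ value. Its log2 fold change was −0.22 (95% interval −0.55 to 0.12, limma adjusted p = 0.90, n = 3). When totals were equalised without mitochondrial genes it was −0.32 and just past a nominal p of 0.05 (limma adjusted p = 0.897), and without Cnr1-/- replicate 3 it was −0.099 (limma adjusted p = 0.993). All 9 border-associated macrophage markers were listed. They summed to 117, 129 and 153 cpm in Cnr1+/+ and 101, 99.2 and 128 cpm in Cnr1-/- libraries. Cnr1-/- replicate 3, with the lowest Itgav, had the highest sum of the Cnr1-/- libraries. Of the 6 markers tested, 1 was lower in Cnr1-/- at a nominal p under 0.05 in limma, where 0.931% of all genes tested were. The part of these macrophages in the Itgav values was not tested.

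Itgb5 (chr16:33829665-33949338, plus strand) encodes β5, which with αV binds vitronectin. It was the second most abundant subunit, at 246, 274 and 338 cpm in Cnr1+/+ and 284, 340 and 311 cpm in Cnr1-/- libraries. The spread within Cnr1+/+ covered nearly all of the Cnr1-/- values. Fitted over both groups, the log2 fold change was 0.13 (95% interval −0.13 to 0.39, limma adjusted p = 0.910, n = 3). Leaving out Cnr1+/+ replicate 3, the highest of its group, gave 0.26, past a nominal p of 0.05 (limma adjusted p = 0.538), whereas leaving out Cnr1+/+ replicate 1, the lowest, gave 0.030 and leaving out Cnr1-/- replicate 2 gave 0.068. With centring, quantile normalisation and equal totals it was 0.056, 0.026 and 0.032.

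Itgb3 (chr11:104608000-104670476, plus strand) encodes β3, which joins αV in macrophages and αIIb in platelets. Its level was 14.1, 13.4 and 16.6 cpm in Cnr1+/+ and 6.50, 9.33 and 20.7 cpm in Cnr1-/- libraries. The lowest and the highest of the 6 libraries were all Cnr1-/-, with the 3 Cnr1+/+ libraries between them. The log2 fold change was −0.44 (95% interval −1.07 to 0.20, limma adjusted p = 0.90, n = 3), the widest interval of the 8 subunits tested. Without Cnr1-/- replicate 3 it was −0.90, past a nominal p of 0.05 (limma adjusted p = 0.629), and without Cnr1-/- replicate 1 it was −0.073. The within-group SD was 0.61 on the log2 scale against 0.14 from counting, for 60 to 174 reads per library, whereas the median within-group SD of all genes tested was 0.22.

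Platelet markers were examined beside Itgb3. Of 6 such markers, 3 were listed (Gp9, Gp1bb and Treml1), and they summed to 25.3, 14.6 and 22.1 cpm in Cnr1+/+ and 31.4, 29.6 and 31.7 cpm in Cnr1-/- libraries. The sums were higher in Cnr1-/- without overlap, and the groups also did not overlap for 11% of all genes tested. Of the 3 markers, Treml1 did not overlap between groups (4.21 to 5.84 cpm in Cnr1+/+, 7.65 to 11.2 cpm in Cnr1-/-). Gp9 did, at 9.73, 6.98 and 14.9 cpm against 14.2, 12.1 and 12.5 cpm, as did Gp1bb, at 9.75, 2.13 and 2.98 cpm against 9.32, 9.80 and 7.94 cpm. Of these markers 1 was tested, and 0 passed a nominal p under 0.05. Pf4, a platelet chemokine that is counted here in the border-associated macrophage list, ran the other way, at 20.9, 16.3 and 23.1 cpm in Cnr1+/+ and 14.8, 12.8 and 15.3 cpm in Cnr1-/- libraries. The platelet partner Itga2b stayed at 0 to 0.560 cpm. The part of platelet RNA in the Itgb3 values was not tested.

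Among the β1 integrins, Itgb1 (chr8:128685654-128733200, plus strand) encodes the beta chain shared by most alpha subunits. Its level was 69.0, 56.0 and 61.7 cpm in Cnr1+/+ and 63.7, 72.3 and 63.9 cpm in Cnr1-/- libraries. Both Cnr1-/- replicates 1 and 3 lay between Cnr1+/+ replicates 3 and 1. This gave a log2 fold change of 0.10 (95% interval −0.19 to 0.40, limma adjusted p = 0.954, n = 3). Leaving out Cnr1+/+ replicate 1 gave 0.18, Cnr1+/+ replicate 2 gave 0.027 and Cnr1-/- replicate 2 gave 0.041, and the value was 0.025, 0.010 and 0.0013 with centring, quantile normalisation and equal totals.

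Itga6 (chr2:71745616-71858416, plus strand) encodes α6, a laminin receptor chain, and varied least of the 10 subunits. It was measured at 227, 249 and 230 cpm in Cnr1+/+ and at 245, 238 and 210 cpm in Cnr1-/- libraries. The highest library was 1.18 times the lowest. Between genotypes, the log2 fold change was −0.03 (95% interval −0.27 to 0.22, limma adjusted p = 0.986, n = 3), an interval of 0.830-fold to 1.16-fold on the deposited scaling. It was −0.10 with centring, −0.12 with quantile normalisation and −0.13 with equal totals, where the interval was 0.788-fold to 1.06-fold. Its sign turned without Cnr1+/+ replicate 2 (0.014) and without Cnr1-/- replicate 3 (0.039).

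Itga9 (chr9:118606690-118901003, plus strand) encodes α9, a receptor chain for tenascin C and other matrix ligands. Its level was 35.5, 36.0 and 35.0 cpm in Cnr1+/+ and 35.5, 46.0 and 37.8 cpm in Cnr1-/- libraries. Cnr1-/- replicate 2, the library with the high neutrophil and erythrocyte markers, stood above the other 5 libraries, which differed by less than 3 cpm. The part of these cells in the Itga9 values was not tested. The log2 fold change was 0.15 (95% interval −0.18 to 0.49, limma adjusted p = 0.933, n = 3), with 0.044 without Cnr1-/- replicate 2 and 0.23 without Cnr1-/- replicate 1. The other scalings gave 0.054 to 0.083. Gm2415, an antisense gene across the 3′ end of Itga9, was listed at 1.16 to 3.37 cpm.

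Itga4 (chr2:79255426-79333123, plus strand) encodes α4, the chain of the VCAM-1 receptor VLA-4 of circulating leukocytes. It was listed at 0.778, 5.49 and 2.42 cpm in Cnr1+/+ and at 2.27, 4.76 and 2.98 cpm in Cnr1-/- libraries, from 6 to 55 reads. The Cnr1+/+ group held both the lowest and the highest library, and the exact permutation test gave p = 0.7 (two-sided, n = 3). Without a minimum level, limma gave a log2 fold change of 0.51 (95% interval −0.67 to 1.69, adjusted p = 0.972). Cerkl, antisense across the 3′ end of Itga4, was listed at 0 to 1.30 cpm.

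**Figure D2:**
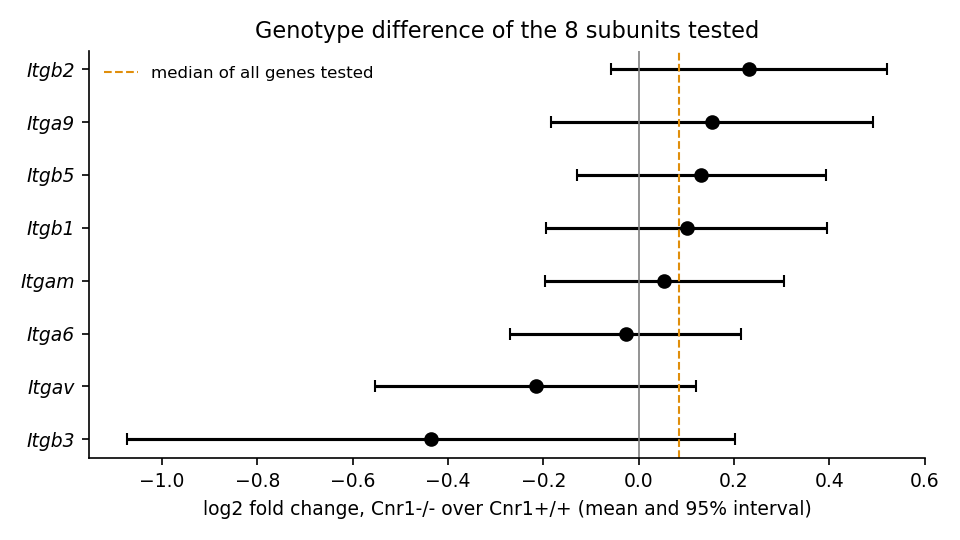
Log2 fold change of the 8 subunits tested (Cnr1-/- over Cnr1+/+, 3 libraries each), with limma 95% intervals, the grey line at 0 and the dashed line at the median of all genes tested (0.08). Every interval includes 0, from −0.44 for Itgb3 to 0.23 for Itgb2.

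Ranked by mean over the 6 libraries, Itgam came first with 339 ± 33.7 cpm (SD, n = 6), followed by Itgb5 with 299 ± 37.2 cpm and Itga6 with 233 ± 14 cpm. Itgb2 followed with 107 ± 16.4 cpm, Itgb1 with 64.4 ± 5.69 cpm, Itgav with 39.0 ± 4.55 cpm and Itga9 with 37.6 ± 4.19 cpm. The last were Itgb3 with 13.4 ± 5.08 cpm, Itga4 with 3.12 ± 1.73 cpm and Itgal with 1.39 ± 1.03 cpm. Neighbours in this order were compared within libraries by a two-sided exact sign-flip test, whose smallest p over 6 libraries is 0.03125. The order was itself set by the means of these libraries, so the p-values describe how steadily neighbours kept it and are no independent test. Itgb5 lay above Itga6, Itga6 above Itgb2, Itgb2 above Itgb1, Itgb1 above Itgav, Itga9 above Itgb3, and Itgb3 above Itga4 in 6 of 6 libraries each (exact p = 0.03125, adjusted p = 0.0469 over 9 pairs). Itgam was above Itgb5 in 5 of 6 libraries (exact p = 0.09375, adjusted p = 0.121), Itgav above Itga9 in 4 of 6 (exact p = 0.625) and Itga4 above Itgal in 5 of 6 (exact p = 0.1875, adjusted p = 0.211), so these neighbours did not differ beyond their spread. Among all listed genes, 99.4% had a lower mean than Itgam and 34.3% a lower mean than Itgal.

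The 10 subunits together amounted to 1112 ± 73.2 cpm in Cnr1+/+ and 1163 ± 83.6 cpm in Cnr1-/- libraries (SD, n = 3, exact permutation p = 0.6). Alpha chains made up 58.5% ± 4.27 and 56.5% ± 2.07 of that sum, respectively (SD, n = 3, exact permutation p = 0.5). Itgam alone held 27.1% to 33.3% of it, and Itgav 3.77% ± 0.347 in Cnr1+/+ against 3.10% ± 0.286 in Cnr1-/- (SD, n = 3, exact permutation p = 0.1, the smallest possible). This was the smallest p of the 10 shares compared, with an adjusted p of 0.857 over them (Benjamini-Hochberg, exact permutation test).

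An alpha chain reaches the cell surface only with a beta partner, so the transcript ratio of 8 known pairs was taken within each library, where scaling cancels. The Itgam to Itgb2 ratio was 3.49, 4.28 and 2.63 in Cnr1+/+ and 3.00, 2.97 and 3.04 in Cnr1-/- libraries. Transcripts of αM thus exceeded those of β2 in 6 of 6 libraries, with the 3 Cnr1-/- ratios inside the Cnr1+/+ range (log2 difference −0.18, exact permutation p = 0.4, n = 3). That difference was −0.011 without Cnr1+/+ replicate 2 and −0.36 without Cnr1+/+ replicate 3. The Itgav to Itgb1 ratio was 0.620, 0.718 and 0.685 in Cnr1+/+ and 0.588, 0.561 and 0.478 in Cnr1-/- libraries. This was the 1 pair of 8 whose groups did not overlap, lower in Cnr1-/- by a log2 difference of −0.32 (exact permutation p = 0.1, the smallest possible for n = 3, adjusted p = 0.8 over 8 pairs). The Itgav to Itgb5 ratio was 0.174, 0.147 and 0.125 against 0.132, 0.119 and 0.0980, with overlap (log2 difference −0.35, exact permutation p = 0.2, n = 3). Leaving out Cnr1+/+ replicate 1 or Cnr1-/- replicate 3 brought it to −0.23. Transcripts of β5 exceeded those of αV in 6 of 6 libraries, and those of β3 lay below αV in 6 of 6, with ratios of Itgav to Itgb3 from 1.47 to 5.77. The genotype difference of that ratio changed sign, from 0.22 on the log2 scale to −0.17 without Cnr1-/- replicate 1, and was 0.80 without Cnr1-/- replicate 3. Itga6 exceeded Itgb1 by ratios of 3.29 to 4.45 (log2 difference −0.13, and −0.013 without Cnr1+/+ replicate 2 or −0.23 without Cnr1+/+ replicate 1), while Itga9 was below Itgb1 at ratios of 0.515 to 0.643. The remaining ratios, to the thinly covered Itgal and Itga4, spanned 0.000876 to 0.0254 and 0.0113 to 0.0980. The log2 difference for Itgal to Itgb2 was 1.52, but 0.55 with a pseudocount of 1, 0.63 without Cnr1+/+ replicate 3 and 2.61 without Cnr1+/+ replicate 1.

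**Figure D3:**
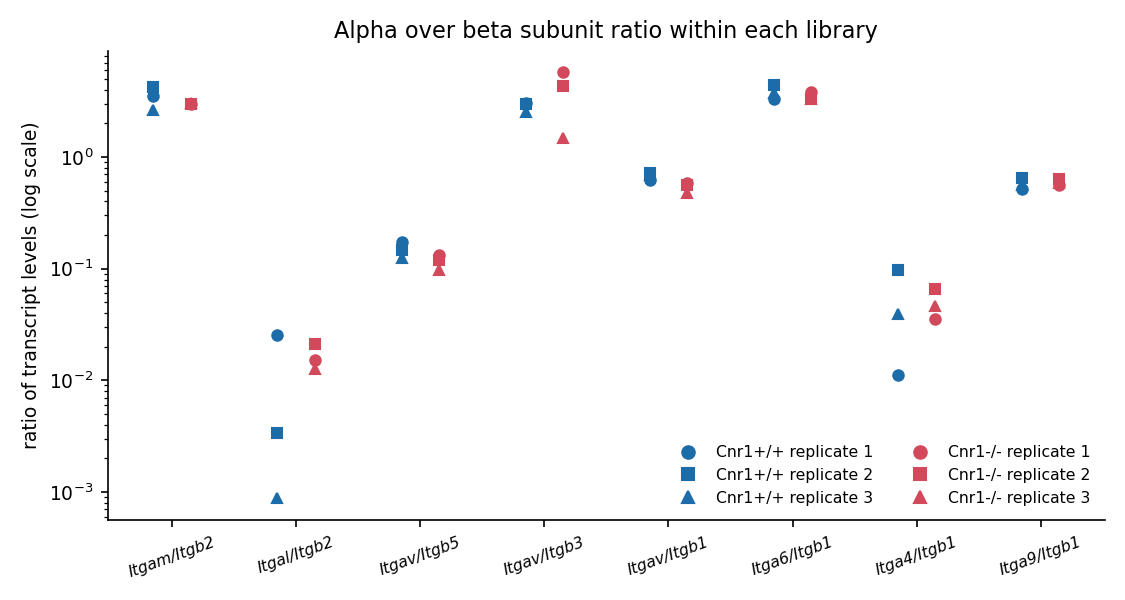
Ratio of alpha to beta transcript levels for 8 known integrin pairs in each library (log axis), Cnr1+/+ in blue and Cnr1-/- in red, with a marker shape per replicate. Only the Itgav/Itgb1 ratios separate by genotype, at 0.620 to 0.718 in Cnr1+/+ and 0.478 to 0.588 in Cnr1-/-.

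Levels of partners were also compared across the 6 libraries. Pearson's r of log2(cpm + 0.1) lay between −0.37 for Itga4 and Itgb1 and 0.63 for Itga9 and Itgb1. For Itgam and Itgb2, r was 0.18 (exact permutation p = 0.676, n = 6) and Spearman's rho 0.26 (exact permutation p = 0.658). Without the 2 libraries farthest from the median of Itgam, r was 0.65, and with libraries centred on their median it was −0.39. The adjusted p over 8 pairs was at least 0.941 for r and 1 for rho, so no pair of partners was found to vary together.

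As a description, the tested genes whose profile over the 6 libraries was most like that of Itgam were Tmf1 (r = 0.990), Zfp260 (r = 0.990) and Rb1cc1 (r = 0.989), and 79 genes had r over 0.9. The mean log2 level of the 10 subunits was most like Nek9 (r = 0.991), Rpl3-ps1 (r = 0.989) and Fbxw11 (r = 0.984). The variable Itgb3, looked up after its values were seen, was most like Cald1, which encodes the actin-binding protein caldesmon (r = 0.997). Cald1 was at 29.8, 28.1 and 38.7 cpm in Cnr1+/+ and 13.7, 19.6 and 45.8 cpm in Cnr1-/- libraries, the same order of libraries as for Itgb3. These points share their libraries and scaling, and the highest values among 6659 genes were picked.

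The integrin pathway around these subunits was followed with 6 further lists of 101 genes, of which 90 were listed and 47 tested. Of the 47, 1 passed a nominal p under 0.05 in limma, higher in Cnr1-/-, and 0 were lower, a share below the 6.02% of all genes tested that passed in either direction. This split turned with scaling, to 0 higher and 2 lower with centred libraries (Parvb and Cd63), and to 0 higher and 4 lower with quantile normalisation or equal totals (Parvb, Adam15, Cd9 and Cd63 in both). Of all genes tested, 375 of 6659, 360 of 6659 and 354 of 6650 passed with centring, quantile normalisation and equal totals, respectively. The share of the lists was thus above that of all genes with quantile normalisation and equal totals. None of the 47 had an adjusted p under 0.1 on the deposited scaling. The groups did not overlap for 6 of the 47, where they did not for 11% of all genes tested. These were Tln1 (talin 1), Sipa1, Crk, Crkl and Fcer1g, higher in Cnr1-/-, and Parvb, lower. Log2 fold changes were above 0 for 37 of the 47 as deposited, where 68.4% of all genes tested were, for 28 with centring (52.0% of all genes), 22 with quantile normalisation (49.7%) and 23 with equal totals (46.2%). The list medians given next are those of the deposited scaling. With centring, quantile normalisation and equal totals, respectively, they became 0.017, −0.0024 and −0.0069 for the kinases, 0.0092, −0.024 and −0.015 for the activators and 0.10, 0.10 and 0.078 for the inhibitors. The ligands had medians of 0.0071, −0.00039 and −0.017, and the membrane partners −0.044, −0.050 and −0.067.

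The gene that passed was Ptk2b, which encodes Pyk2, a focal adhesion kinase family member that acts downstream of integrins. Its level was 40.0, 28.5 and 29.9 cpm in Cnr1+/+ and 43.0, 37.4 and 45.3 cpm in Cnr1-/- libraries. Cnr1+/+ replicate 1 lay above the lowest Cnr1-/- library, so the groups overlapped. The log2 fold change was 0.36 (95% interval 0.01 to 0.72, limma adjusted p = 0.821, n = 3). The nominal call was lost with each of the other scalings (0.29 with centred libraries, 0.28 with quantile normalisation and 0.27 with equal totals). It was also lost with eBayes without trend, and on leaving out Cnr1+/+ replicate 2 (0.27), Cnr1+/+ replicate 3 (0.31), Cnr1-/- replicate 1 (0.34) or Cnr1-/- replicate 3 (0.31).

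Among the 11 tested kinases and signal adaptors close to the receptor, the median log2 fold change was 0.09. The most abundant were Tyrobp, the ITAM adaptor DAP12, at 336 to 437 cpm, Fcer1g, another ITAM adaptor, at 226 to 338 cpm, and the Src family kinase Lyn at 231 to 279 cpm. Their log2 fold changes were 0.01 for Tyrobp, 0.24 for Fcer1g (limma adjusted p = 0.829) and 0.00 for Lyn. Fcer1g passed a nominal p of 0.05 on leaving out Cnr1+/+ replicate 1 (0.28) or replicate 3 (0.29).

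Among the 15 tested activators and adaptors, the median log2 fold change was 0.08 and 0 passed a nominal p under 0.05. The most abundant were Fyb, which encodes the adaptor ADAP, at 265 to 328 cpm, Apbb1ip, which encodes the Rap1 effector RIAM, at 200 to 253 cpm, and Rap1b at 157 to 214 cpm. Their log2 fold changes were 0.08, 0.04 and 0.01. Parvb, which encodes the focal adhesion adaptor β-parvin, was named after its values were seen, as were the next 2 genes. It was at 11.9, 12.2 and 13.1 cpm in Cnr1+/+ and 7.36, 11.7 and 6.32 cpm in Cnr1-/- libraries. The groups did not overlap, although Cnr1-/- replicate 2 came close to the Cnr1+/+ libraries (log2 fold change −0.59, 95% interval −1.19 to 0.01, limma adjusted p = 0.825, n = 3). It was lower past a nominal p of 0.05 with centring (−0.67), quantile normalisation (−0.71), equal totals (−0.69), eBayes without trend, no minimum level, and without Cnr1-/- replicate 2 (−0.85). Rap1a, which encodes a Rap1 GTPase, had 0.36 (limma adjusted p = 0.825) and was higher past a nominal p of 0.05 without Cnr1+/+ replicate 3 (0.60) or Cnr1-/- replicate 2 (0.39), with vooma weights, with the replicate block and with no minimum level. Fermt3, the leukocyte kindlin, had 0.21, and 0.30 past a nominal p of 0.05 without Cnr1+/+ replicate 3. The 6 tested inhibitors of activation had a median of 0.18 and log2 fold changes from 0.08 to 0.25, with 0 past a nominal p under 0.05. The number above 0 was 6 of 6 as deposited and after centring, and 5 of 6 after quantile normalisation or with equal totals. For the activators it fell from 12 of 15 to 8, 7 and 7, and for the kinases from 9 of 11 to 7, 5 and 5. Sipa1, a GTPase-activating protein for Rap1, led this list at 188, 162 and 178 cpm in Cnr1+/+ and 190, 220 and 213 cpm in Cnr1-/- libraries. These groups did not overlap, but by a margin of only about 2 cpm (log2 fold change 0.24, limma adjusted p = 0.829), and it passed a nominal p of 0.05 on leaving out Cnr1+/+ replicate 1 (0.28) or Cnr1-/- replicate 1 (0.30). Rasa3, also a GTPase-activating protein, and Dok1, an adaptor that competes with talin, had log2 fold changes of 0.08 and 0.12, and Dok1 had 0.38, past a nominal p of 0.05, once Cnr1+/+ replicate 3 was left out. Sharpin, an inhibitor that binds alpha chain tails, had 0.25, and 0.49 past that threshold without Cnr1+/+ replicate 1.

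Of 28 ligands and counter-receptors, 23 were listed and 7 tested, with a median log2 fold change of 0.08 and 0 past a nominal p under 0.05. F11r (JAM-A, a ligand of LFA-1) was the most abundant at 300 to 367 cpm, followed by Adam15, a disintegrin and metalloprotease, at 127 to 176 cpm (log2 fold change −0.17, and −0.30 past a nominal p of 0.05 when Cnr1+/+ replicate 2 was left out). Nrros, which tethers latent TGF-β on microglia for release by αV integrins, was at 91.0 to 119 cpm, with a log2 fold change of 0.08. Vcam1, the counter-receptor of VLA-4, had −0.37, and −0.63 past a nominal p of 0.05 without Cnr1+/+ replicate 2. Of the membrane partners of integrins, 8 of 10 were tested with a median of 0.03 and 0 past a nominal p under 0.05. The tetraspanins Cd81, Cd63 and Cd9 led with means of 549, 206 and 154 cpm and log2 fold changes of 0.12, −0.22 and −0.15. Cd81 had 0.24 without Cnr1+/+ replicate 3 and Cd63 −0.33 without Cnr1+/+ replicate 2, both then past a nominal p of 0.05.

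The other integrin subunits were scarce. Of 16, 11 were listed, and 0 reached the mean of 10 cpm for a test. Itgax, which encodes αX (CD11c), the alpha chain of complement receptor 4, was highest, at 6.10, 5.59 and 6.52 cpm in Cnr1+/+ and 5.52, 5.13 and 2.27 cpm in Cnr1-/- libraries. The groups did not overlap, with Cnr1-/- replicate 1 just below the lowest Cnr1+/+ library (exact permutation p = 0.1, the smallest possible, n = 3). Itga11, a collagen receptor chain, was at 4.54, 2.79 and 1.79 cpm against 0.433, 1.12 and 1.31 cpm, also lower in Cnr1-/- without overlap (exact permutation p = 0.1, n = 3). In the opposite direction, Itga10, another collagen receptor chain, named after its values were seen, was at 0.259, 0.998 and 1.05 cpm against 2.47, 1.56 and 1.79 cpm, higher in Cnr1-/- without overlap (exact permutation p = 0.1, n = 3). Thus 3 of the 11 listed did not overlap, 2 lower and 1 higher, at levels below those of the tested genes, of which 11% did not. Itga7, a laminin receptor chain, was at 1.12 to 2.62 cpm with overlap.

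**Figure D4:**
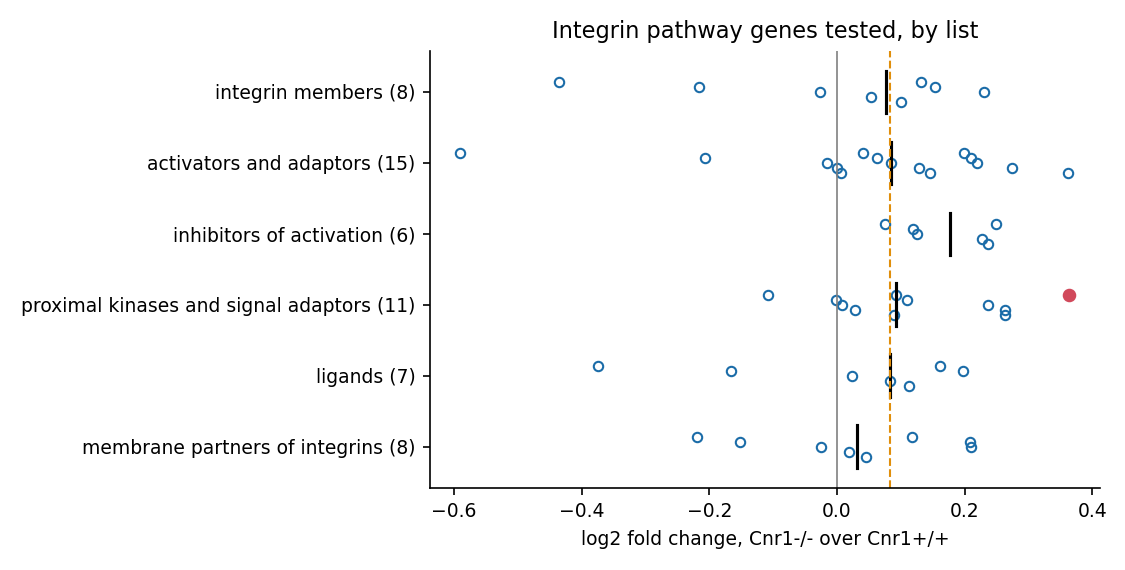
Log2 fold changes (Cnr1-/- over Cnr1+/+) of the tested genes of the 10 subunits and of 5 pathway lists, 1 circle per gene, with the number tested in parentheses, a black bar at each list's median, the grey line at 0 and the dashed line at the median of all genes (0.08). The filled red point is Ptk2b at 0.36, the 1 gene of these lists with a nominal p under 0.05, and list medians lie between 0.03 and 0.18.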

How the data were processed

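CD11b+ cells were isolated with magnetic beads from perfused brains after removal of myelin, and 3′ mRNA libraries of 3 Cnr1+/+ and 3 Cnr1-/- mice were sequenced. The authors aligned the reads with STAR to mm10, divided reads among genes by expectation-maximisation in Partek and deposited TMM-scaled CPM. All 6 value columns were mapped by the number in the sample labels. The listed genes take 50.1% to 59.1% of the scaled reads, and 86.9% to 88.6% of values above 0 were whole multiples (within 0.1) of the value of 1 read, so tests for counts were not used. A value of 0 allows up to 3 reads (0.280 to 0.389 cpm), for counting error only. Separate mice were labelled as replicates.

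Genotypes were compared with limma 3.58.1 in R 4.3.3 (lmFit, eBayes with trend) after log2(value + 0.1), keeping genes whose mean reached 10, with Benjamini-Hochberg adjustment over all genes tested. Thresholds were a nominal p under 0.05, or a change over 1.5-fold at an adjusted p under 0.1. On this scale the changes of low genes depend on the pseudocount and on averaging logarithms, and may be understated or overstated. Without a minimum level, those of Itgal and Itga4 (1.75 and 0.51) exceeded their log2 ratios of group means (1.14 and 0.20). Exact permutation tests were two-sided. The steps were tested on simulated data. The named genes are all 10 subunits, in each list those with a nominal p under 0.05 and the 3 most abundant, and the genes most like Itgam or the subunits' mean. Others named were chosen after their values were seen, or are markers or overlapping genes. Subunits and lists were chosen with earlier results of these data known. Coordinates are those of the deposited table and matched GENCODE vM21 for all 10 subunits. Alternatives changed the pseudocount (1 or 0.0001), the minimum mean (none or 20), the scaling (3 others), the variance model (eBayes without trend, or vooma weights) or the libraries (1 left out at a time), or added a replicate block. The sums with Gm49368 and Itgb2l were added after seeing the data. Python 3.11.15, scipy 1.17.1 and matplotlib 3.10.9 were used.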

Additional observations from a re-analysis of the deposited data

How the results depend on the processing

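Over all genes, 401 passed a nominal p under 0.05, against 993 without a filter and 263 with a minimum mean of 20. With each library left out, 251 (without Cnr1-/- replicate 2) to 600 (without Cnr1+/+ replicate 3) passed. Of the 600, 548 were higher in Cnr1-/-. The 6 genes with an adjusted p under 0.1 and a fold change over 1.5 became 14 without a filter, 0 with centring, quantile normalisation, equal totals or eBayes without trend, and 1 (without Cnr1+/+ replicate 2) to 24 (without Cnr1-/- replicate 3) with each library left out. The number of subunits past a nominal p under 0.05 was 1 with equal totals (Itgav) and 0 to 2 with each library left out (Itgb2 and Itgb5 without Cnr1+/+ replicate 3, Itgb3 without Cnr1-/- replicate 3), and 0 under the other alternatives. In the pathway lists 1 gene became 5 without a filter (Ptk2b, Rap1a and C3 higher, Parvb and Itga11 lower). The number was 2 with centring, 4 with quantile normalisation and 4 with equal totals (all lower in these 3). It was 2 with vooma weights and 1 with eBayes without trend (Parvb, encoding β-parvin, in place of Ptk2b, lower). With each library left out it was 0 (without Cnr1-/- replicate 3) to 5 (without Cnr1+/+ replicate 3). The log2 fold change of Itgam reversed to −0.021 with centring, −0.063 with quantile normalisation and −0.045 with equal totals, and lay between −0.012 and 0.16 with each library left out, while that of Itga6 lay between −0.071 and 0.039. The correlation of Itgam with Itgb2 was −0.39 and that of Itga6 with Itgb1 0.14 with centring. Without the 2 farthest libraries, that of Itgav with Itgb3 was 0.62, that of Itga4 with Itgb1 0.95 and that of Itga9 with Itgb1 −0.44. With each library left out, the log2 difference of the ratio changed sign for Itgav to Itgb3 (−0.17 to 0.80), Itga4 to Itgb1 (−0.37 to 1.12) and Itga9 to Itgb1 (−0.024 to 0.14), and not for the other 5 pairs. The cause of these changes was not tested.

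Deviations from the group mean correlated at −0.056, −0.032 and −0.031 between libraries of the same replicate number. Between libraries of different numbers they correlated at −0.0036 to 0.040. Deviations cancel within a group of 3 libraries, so these values cannot decide whether replicate numbers paired the libraries. With the replicate block, 421 genes and 2 pathway genes (Rap1a besides Ptk2b) had a nominal p under 0.05, and 0 subunits did. Itgal and Itga4 rest on 1 to 55 reads per library, and their within-group SDs of 1.32 and 1.02 on the log2 scale exceeded the 0.74 and 0.34 that counting gives.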
